A study of Mus musculus with 22 samples.

Results

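The cell cycle was examined through 43 genes grouped into 7 lists by the phase in which they act, out of 53801 genes in both bulk count tables. The lists held 5 G1 and G1/S regulators, 8 DNA replication genes, 7 G2/M cyclins and kinases, 8 kinetochore, checkpoint and chromosome genes, 10 spindle and cytokinesis genes, 2 genes of the anaphase-promoting complex (APC/C) pathway and 3 inhibitors of cyclin-dependent kinases (Cdk). The G2/M, kinetochore, spindle and APC/C lists together held 27 genes and are called mitotic here. All 43 were in the bulk tables, and 42 were followed in single cells, where Aurkb was not analysed. The questions were which phase differed between AdipoR1-/- (KO) and WT retinal pigment epithelium (RPE), and whether any cell type of the retina carried the transcripts of a dividing cell.

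The mice were on the C57BL/6J strain, either WT or AdipoR1-/-, a germline knockout from a targeted line bred onto that strain. Bulk libraries were made at P30 (30 days of age) from the retina and from the RPE, with 4 libraries per genotype and tissue. Single-cell libraries came from dissociated retinae at 3 ages, P19, P25 and P30. Each age had 1 WT and 1 KO library, and each library pooled 4 retinae. RPE cells were shaken off the eyecup before the choroid and sclera were taken away, so cells that lie on or behind the RPE could come along. The labels do not say which animals the replicate numbers stand for, and p-values measure the spread between these libraries only. The P30 single-cell libraries formed a first sequencing batch and those at P19 and P25 a second, so age and batch cannot be told apart.

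A dividing cell passes from G1 through DNA synthesis to G2 and mitosis, and each step has its own transcripts. D-type cyclins and E2F factors act at the G1/S boundary, the MCM helicase and PCNA copy the DNA, and cyclin B, Cdk1, Aurora and Polo kinases, kinetochore proteins and kinesins carry out mitosis until APC/C ends it. Neurons of the adult retina do not divide, Müller glia rest in G0, and RPE cells form a postmitotic layer, whereas microglia, endothelial cells and fibroblasts can divide.

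Mitotic genes are known to share short promoter elements, which is why a few promoters are shown before the values. Windows from 250 bases before to 50 after the RefSeq start (GRCm38.p6) were given for 35 of the 43 genes and were searched on both strands for the cell cycle genes homology region (TTTGAA), the CCAAT box (CCAAT) and an E2F site (TTTNNCGC). The 120 bases before the start are printed for 3 mitotic genes described below, with capitals at TTTGAA or CCAAT on either strand, and for the replication gene Mcm6, with capitals at the E2F site or CCAAT on either strand. In Mcm6 the first run of capitals holds overlapping E2F matches, 1 on each strand.
Top2a, chr11:99024190-99024309, minus strand: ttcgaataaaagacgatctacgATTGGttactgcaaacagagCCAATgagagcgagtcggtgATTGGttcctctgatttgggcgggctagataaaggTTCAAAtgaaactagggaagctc
Mki67, chr7:135716380-135716499, minus strand: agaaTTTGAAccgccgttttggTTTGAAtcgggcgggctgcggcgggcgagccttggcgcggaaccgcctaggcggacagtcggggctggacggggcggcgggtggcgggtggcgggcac
Kif11, chr19:37376262-37376381, plus strand: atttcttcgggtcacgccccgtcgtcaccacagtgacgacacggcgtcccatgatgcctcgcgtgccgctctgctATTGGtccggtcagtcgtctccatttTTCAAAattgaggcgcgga
Mcm6, chr1:128359706-128359825, minus strand: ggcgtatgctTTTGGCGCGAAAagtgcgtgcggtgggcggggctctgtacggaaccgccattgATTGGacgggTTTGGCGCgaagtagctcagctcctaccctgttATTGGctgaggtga

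Promoters are counted by gene here, and a gene with more than 1 was scored for a match in any of them. The homology region stood in 18 of the 23 mitotic promoters, against 20.2% of all 27025 genes with a promoter. It was in 1 of 7 replication promoters, 0 of 2 G1 promoters and 0 of 3 Cdk inhibitor promoters. By list it was in 4 of 5 G2/M, 5 of 8 kinetochore, 7 of 8 spindle and 2 of 2 APC/C promoters. CCAAT was in 28 of the 35 cell cycle genes with a promoter, against 41.1% of all genes with a promoter. The E2F site stood in 4 of 7 replication promoters and 1 of 23 mitotic promoters, that of Cdk1, against 5.93% of all genes with a promoter. These are matches of letters, and no factor's binding was measured.

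Total counts lay between 20133143 and 38409496 per RPE library and between 22734843 and 35118164 per retina library. Levels are given as CPM, counts per 1000000 after TMM scaling, replicates 1 to 4 in order. Adipor1 itself was counted at 137 to 154 CPM of total counts in the KO RPE against 355 to 481 in the WT RPE, and at 140 to 147 against 569 to 584 in the retina; gene counts do not tell which exons the remaining reads came from. RPE libraries carried retinal RNA in unequal amounts: the summed level of 10 rod markers was 16494 and 16396 CPM in WT replicates 2 and 3 and 816 to 5714 CPM in the other 6 RPE libraries. Fewer cells of a type and less RNA per cell cannot be told apart in bulk tissue.

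In the KO RPE, 15 of the 27 mitotic genes rose and none of the 8 replication genes did. Of 42 members tested, 15 were higher in KO at an adjusted p below 0.05 (edgeR), where 2.84% of 18989 genes were, and 1 was lower, where 3.89% of genes were. Members and lists were chosen with earlier results of these data known, which limits this comparison with all genes. All 15 were mitotic: 3 of 7 G2/M cyclins and kinases, 5 of 8 kinetochore genes, 6 of 10 spindle genes and 1 of 2 APC/C genes, against 0 of 5 G1 regulators, 0 of 8 replication genes and 0 of 2 Cdk inhibitors tested. The median log2 fold change of the 27 mitotic members was 1.21 and that of the 8 replication members −0.02, which was also the median of all genes tested. All 27 mitotic members had a fold change above 0, and in 21 of them every KO library lay above every WT library, which was so for 7.37% of all genes. Cdkn2a, with 0 to 3 counts per RPE library, was not tested.

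**Figure D1:**
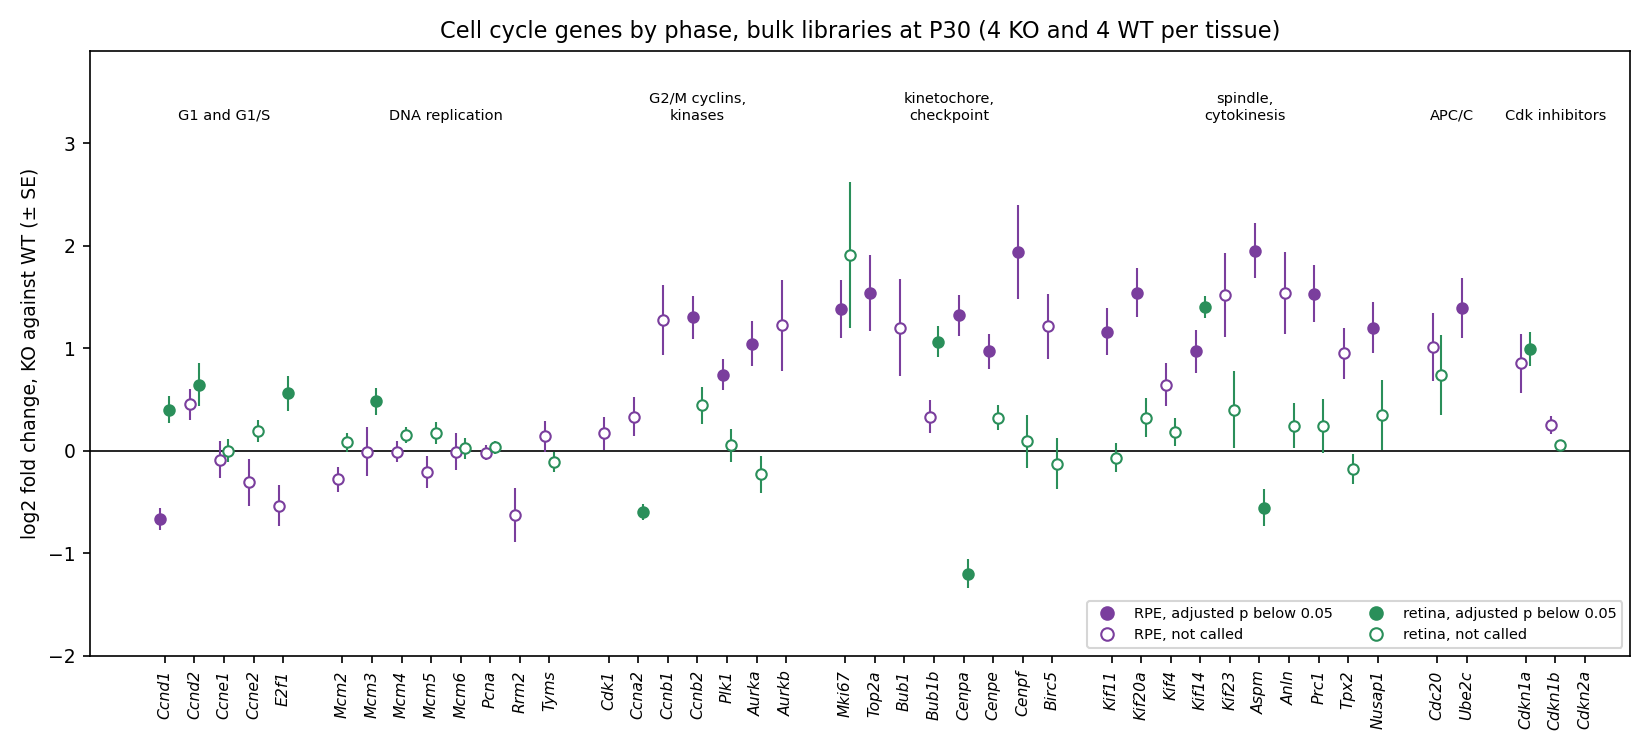
Log2 fold change (KO against WT, ± SE) of each gene on the vertical axis, by phase list along the horizontal axis, in the RPE (purple) and the retina (green), filled where the adjusted p was below 0.05. In the RPE the 8 replication genes lie at or under 0.14 and the 27 mitotic genes at or above 0.17, while in the retina the lists mix; genes not tested have no point.

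Among the kinetochore and chromosome genes that rose, Mki67, the Ki-67 antigen of cycling cells, was the most abundant per kilobase of exon, with 0.854 RPKM in WT and 2.22 in KO (chromosome 7, 135689784 to 135716361, GRCm38). Its CPM was 11.9, 6.76, 5.66 and 10.0 in the WT RPE and 29.6, 18.1, 17.4 and 24.2 in the KO RPE. The groups did not overlap, and the log2 fold change was 1.38 ± 0.28 (SE, n = 4 per group, adjusted p = 0.0241). Top2a, the topoisomerase that untangles chromosomes (chromosome 11, 98992943 to 99024189), was at 8.49, 4.81, 2.28 and 4.24 CPM in WT and 18.5, 12.3, 11.1 and 16.1 CPM in KO. Each KO library exceeded each WT library by this gene too, with a log2 fold change of 1.54 ± 0.37 (adjusted p = 0.0489). This call held in 1 of the 8 fits that each left out 1 library, that without WT replicate 1 (adjusted p from 0.011 to 0.132 over the 8), and it was lost under both other count filters.

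Cenpa, the histone H3 variant that marks centromeres (chromosome 5, 30666777 to 30674830), went from 2.75, 2.20, 1.96 and 1.57 CPM in WT to 5.60, 4.43, 5.03 and 6.29 CPM in KO. Cenpe, a kinesin of the kinetochore, was at 2.99, 2.37, 2.31 and 3.09 CPM in WT and 5.96, 4.23, 5.07 and 5.81 CPM in KO. Neither gene's groups overlapped, and the log2 fold changes were 1.32 ± 0.20 (adjusted p = 0.00763) and 0.97 ± 0.17 (adjusted p = 0.0133). Cenpf, which binds kinetochores in G2 and mitosis, rose 3.83-fold (log2 1.94 ± 0.46, adjusted p = 0.0445), a call that also held in 1 of those 8 fits (adjusted p up to 0.12). Birc5, the survivin subunit of the chromosomal passenger complex, and the checkpoint kinase Bub1 had log2 fold changes of 1.21 and 1.20 that did not pass the test (adjusted p = 0.0653 and 0.205). Bub1b, the BubR1 checkpoint protein, had the highest level per kilobase of this list, 3.99 RPKM in WT and 5.02 in KO, and was at 17.4, 14.5, 20.3 and 16.1 CPM in WT and 18.4, 23.1, 26.6 and 17.8 CPM in KO, which overlapped (log2 0.33 ± 0.16, adjusted p = 0.297).

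The spindle list held the gene with the smallest p of all members, Aspm, which organises spindle poles (chromosome 1, 139454772 to 139494091). Aspm was at 1.66, 0.839, 0.751 and 1.15 CPM in the WT RPE and 4.81, 3.64, 3.78 and 4.76 CPM in the KO RPE. The lowest KO library was above the highest WT library, and the rise was 3.86-fold (log2 1.95 ± 0.27, adjusted p = 0.00545). Kif20a, the kinesin MKLP2 of the cleavage furrow, was at 2.23, 1.65, 1.16 and 1.57 CPM in WT and 6.00, 3.64, 4.42 and 5.28 CPM in KO, a log2 fold change of 1.54 ± 0.24 (adjusted p = 0.00904). Prc1, which bundles microtubules of the central spindle, was at 3.73, 2.15, 1.5 and 2.36 CPM in WT and 8.56, 5.80, 6.12 and 7.69 CPM in KO (log2 1.53 ± 0.28, adjusted p = 0.017).

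Kif11, the bipolar kinesin Eg5 that pushes spindle poles apart, was at 2.83, 1.36, 1.91 and 2.15 CPM in WT and 5.17, 4.19, 4.08 and 4.92 CPM in KO. Its groups stayed apart, with a log2 fold change of 1.16 ± 0.23 (adjusted p = 0.0225). Nusap1, a microtubule binder of the spindle, was at 2.04, 1.68, 1.44 and 2.51 CPM in WT and 5.53, 3.52, 3.29 and 5.20 CPM in KO (log2 1.20 ± 0.25, adjusted p = 0.0269). Kif14, a kinesin of cytokinesis, rose 1.96-fold (log2 0.97 ± 0.21, adjusted p = 0.0317). The contractile ring scaffold Anln was at 5.36, 2.54, 1.5 and 2.04 CPM in WT and 11.1, 7.25, 6.09 and 9.09 CPM in KO. Every KO library was above every WT library, and the test was not passed (log2 1.54 ± 0.40, adjusted p = 0.0629). The cytokinesis kinesin Kif23 (1.52, adjusted p = 0.071), the Aurora A activator Tpx2 (0.95, adjusted p = 0.0674) and the chromosome-bound kinesin Kif4 (0.64, adjusted p = 0.127) had log2 fold changes of the same sign that did not pass either.

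The G2/M cyclins and kinases split. Ccnb2, a B-type cyclin that activates Cdk1 (chromosome 9, 70407692 to 70421547), rose 2.47-fold, from 2.26, 1.60, 1.56 and 1.73 CPM in WT to 5.42, 3.21, 4.38 and 4.64 CPM in KO (log2 1.30 ± 0.21, adjusted p = 0.00917). Plk1, the Polo kinase of mitotic entry, was at 1.69, 1.88, 1.82 and 1.57 CPM in WT and 3.11, 2.43, 3.29 and 2.80 CPM in KO (log2 0.74 ± 0.15, adjusted p = 0.0249). With the replicate number as a block its adjusted p was 0.0653. Aurka, the Aurora kinase of spindle poles, rose 2.06-fold (log2 1.04 ± 0.22, adjusted p = 0.027).

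Cdk1, the kinase that drives mitosis, had the highest level per kilobase of the G2/M genes, 3.14 RPKM in WT and 3.53 in KO, and did not pass the test. It was at 17.9, 10.7, 17.1 and 16.3 CPM in WT and 18.8, 16.0, 16.8 and 18.1 CPM in KO, groups that overlapped (log2 0.17 ± 0.16, adjusted p = 0.585). Ccna2, the cyclin of S phase and G2, was at 5.52, 8.74, 7.19 and 5.55 CPM in WT and 10.7, 7.60, 7.86 and 7.81 CPM in KO (log2 0.33 ± 0.19, adjusted p = 0.383). Ccnb1 (log2 1.27, adjusted p = 0.0691) had no overlap between groups and Aurkb (1.22, adjusted p = 0.168) did, and neither passed.

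Ube2c, the ubiquitin-conjugating enzyme that feeds APC/C, was at 2.83, 1.41, 1.39 and 1.88 CPM in the WT RPE and 5.31, 3.96, 3.93 and 6.57 CPM in the KO RPE. Its groups did not overlap (log2 1.39 ± 0.29, adjusted p = 0.0268). Cdc20, the APC/C activator, was at 5.11, 2.54, 2.37 and 4.87 CPM in WT and 10.1, 5.25, 6.31 and 8.29 CPM in KO, also apart, with an adjusted p of 0.121 (log2 1.01 ± 0.33). The block moved 6 members over the threshold, Cdc20 (adjusted p = 0.0193), Anln (0.0163), Kif23 (0.0276), Ccnb1 (0.0258), Tpx2 (0.0459) and the Cdk inhibitor Cdkn1a (0.0393), and gave 20 higher members in all, of which 14 were among the 15.

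**Figure D2:**
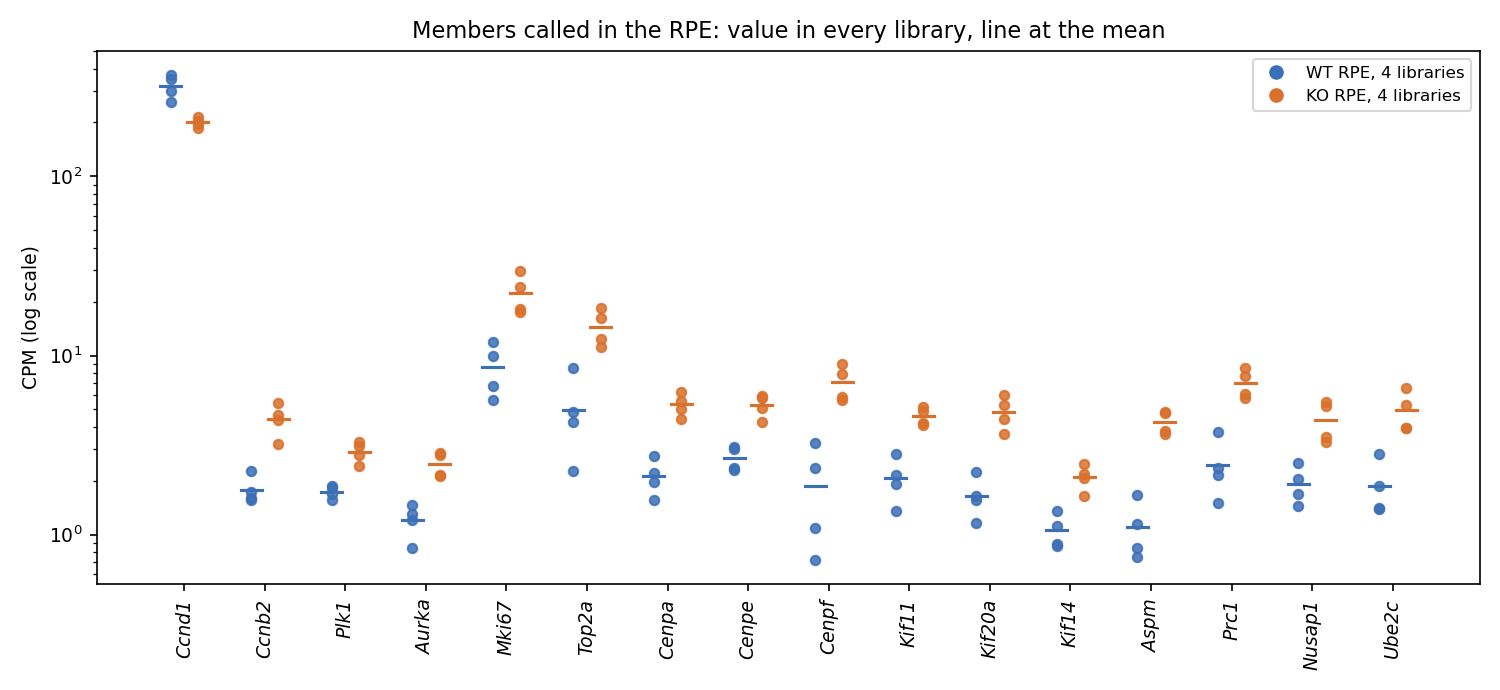
CPM on a logarithmic axis of the 16 members that passed the test in the RPE, with a point for each of the 4 WT (blue) and 4 KO (orange) libraries and a line at the mean. For each gene the WT and KO points do not overlap, and Ccnd1 is the 1 gene whose KO points lie under its WT points.

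Replication genes lay close together in both genotypes. Pcna, the sliding clamp of DNA polymerase, was at 23.5, 26, 24.6 and 23.6 CPM in the WT RPE and 25.7, 22.7, 23.5 and 24.1 CPM in the KO RPE (log2 −0.02 ± 0.07, adjusted p = 0.864). Mcm4, a subunit of the helicase, was at 16.1, 13, 13.6 and 14.8 CPM in WT and 15.4, 14.6, 13 and 14.1 CPM in KO (log2 −0.01 ± 0.10, adjusted p = 0.978). Both overlapped, and the sign of so small a difference changed between settings. The other helicase subunits Mcm2, Mcm3, Mcm5 and Mcm6 had log2 fold changes between −0.28 and −0.01. The nucleotide-supplying enzymes Rrm2 and Tyms were at −0.63 ± 0.26 (adjusted p = 0.218) and 0.14 ± 0.15 (adjusted p = 0.622). The summed level of the 8 replication genes was 95.1, 88.1, 76.1 and 88.6 CPM in WT and 93.9, 78.1, 73.7 and 82.8 CPM in KO, whereas that of the 27 mitotic genes was 118, 80.5, 83.0 and 95.9 CPM in WT and 213, 160, 167 and 195 CPM in KO.

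Ccnd1, the cyclin D1 that opens G1 (chromosome 7, 144929931 to 144939925), was the 1 member that fell in the RPE. It was at 368, 260, 298 and 350 CPM in WT and 205, 186, 196 and 214 CPM in KO, so all KO libraries were below all WT libraries (log2 −0.67 ± 0.11, adjusted p = 0.0124). Its neighbour LTO1 overlaps 23.4% of its exon bases on the opposite strand, and no source used here says whether counting used strand. Other genes likewise overlap exon bases of Kif20a (29.3%), Ube2c (22.8%), Ccne2 (17.4%), Kif4 (15.1%), Ccna2 (12.5%) and Prc1 (11.1%). Some other members have smaller overlaps. The share of counts that such neighbours could add was not measured and need not equal the share of bases. Ccnd2, cyclin D2, was at 165, 120, 110 and 172 CPM in WT and 201, 177, 188 and 208 CPM in KO, with no overlap and no call (log2 0.45 ± 0.15, adjusted p = 0.142). Per kilobase of exon, Ccnd1 averaged 67.7 RPKM in WT and 42.6 in KO, above each other member, and Ccnd2 15.1 and 20.6. E2f1, the transcription factor of the G1/S boundary, had a log2 fold change of −0.54 ± 0.20 (adjusted p = 0.168), and the E-type cyclins Ccne1 and Ccne2 of −0.09 and −0.31.

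Cdk inhibitors did not pass the test without the block. Cdkn1a, p21, was at 18.9, 9.85, 8.29 and 12.8 CPM in the WT RPE and 23.2, 19.9, 16.5 and 30.3 CPM in the KO RPE, overlapping through WT replicate 1 (log2 0.85 ± 0.29, adjusted p = 0.14). Cdkn1b, p27, which keeps cells out of the cycle, was at 109, 83.9, 101 and 95.9 CPM in WT and 125, 118, 104 and 117 CPM in KO (log2 0.25 ± 0.09, adjusted p = 0.176).

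A further 118 cell cycle genes outside the 43 were counted by phase as well. In the RPE 116 were tested, and 8 were higher, where 2.84% of all genes were, and 0 lower. The higher genes were 7 of 57 tested G2/M and mitotic genes, 0 of 32 replication genes and 1 of 18 G1 genes, and the difference between these phases was not tested. The 8 were the mitotic entry gene Cdca3 (log2 1.10 ± 0.19, adjusted p = 0.0122), the condensin subunit Ncaph (1.18), the spindle gene Hmmr (2.09), the kinetochore genes Nuf2 (1.25), Spc24 (1.31) and Ndc80 (1.33), the passenger subunit Cdca8 (1.46), and Foxm1, a transcription factor of mitotic genes. Foxm1 was at 3.40, 2.57, 2.77 and 3.19 CPM in WT and 6.47, 3.88, 5.07 and 6.29 CPM in KO, without overlap (log2 0.86 ± 0.19, adjusted p = 0.0364). The replication licensing factors Cdc6 and Cdt1 lay at −0.43 ± 0.16 and −0.52 ± 0.24 (adjusted p = 0.178 and 0.273) and the single-strand binding protein Rpa1 at −0.10 ± 0.05. Of the rest, the G1 genes Cks1b (0.50) and Myb (0.55), the p53 gene Trp53 (0.35), its target Btg2 (−0.48) and the Cdk inhibitor Cdkn2b (0.70) did not pass either.

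Markers of microglia and macrophages moved in the same libraries. Of 15 such markers, 14 were higher in the KO RPE (median log2 fold change 1.32), and their summed level was 719, 457, 610 and 690 CPM in WT and 858, 929, 945 and 970 CPM in KO. Within the WT libraries, replicate 1 was highest and replicate 2 lowest in both the mitotic sum and the sum of these markers, whereas within the KO libraries replicate 1 had the highest mitotic sum and the lowest marker sum. Fibroblast markers summed to 1926, 842, 524 and 713 CPM in WT and 1609, 1113, 834 and 1277 CPM in KO, with 0 of 6 called. Of 12 RPE markers 2 were lower, and their sum, 35232 to 53837 CPM in WT and 44302 to 46610 CPM in KO, shows the labelled tissue. Endothelial markers summed to 297 to 433 CPM in WT and 267 to 438 CPM in KO. The part of each cell type in the mitotic rise was not tested.

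**Figure D3:**
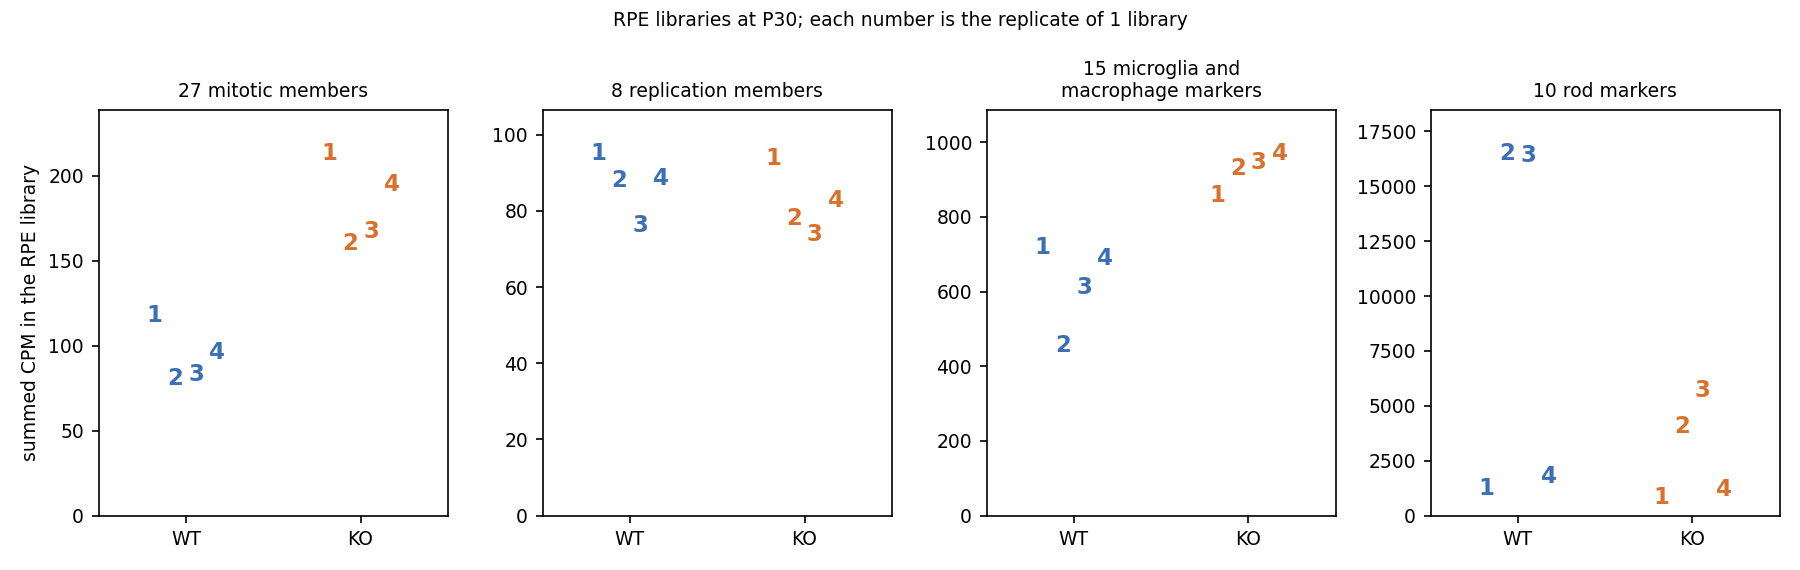
Summed CPM (vertical axes, from 0) of the 27 mitotic members, the 8 replication members, 15 microglia and macrophage markers and 10 rod markers in each WT (blue) and KO (orange) RPE library, drawn as its replicate number. The mitotic sums are 80.5 to 118 in WT and 160 to 213 in KO, the replication sums overlap, and WT replicates 2 and 3 have the most rod RNA.

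The count of higher members depended on which libraries were used. Without WT replicates 2 and 3, a choice made after the rod levels were seen, 6 members were called higher in the RPE: Aspm, Cenpa, Cenpf, Kif11, Kif20a and Prc1, and the log2 fold changes of the 15 lay between 0.81 and 1.59. Leaving out any 1 library gave 5 to 22 calls, with 5 without KO replicate 1 or 4, 6 without WT replicate 3 and 9 without KO replicate 2 or WT replicate 4. Without WT replicate 2, which had the most rod RNA, 13 were called, and the part of rod RNA in these counts was not tested. Aspm, Cenpa, Kif20a and Ccnd1 passed in all 8 of those fits and in all 9 other settings tried. Ccnb2 passed in all 8 as well, Cenpe in 7, Prc1 in 6, Mki67 and Nusap1 in 5, and Plk1, Aurka, Kif11, Kif14 and Ube2c in 3.

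In the KO retina the members went in both directions. Of 35 tested, 7 were higher, where 16.2% of 19381 genes were, and 3 were lower, where 14.7% of genes were. The 4 mitotic lists gave 2 higher and 3 lower of 21 tested, with a median log2 fold change of 0.24. All KO libraries were above all WT libraries for 4 of the 35, against 16.2% of all genes. Scaling by library totals in place of TMM raised the median log2 fold change of all retinal genes by 0.11, from 0.00, turned 3144 higher and 2846 lower genes into 5855 and 1485, and gave 12 higher members. Summed over 27 genes, the mitotic level was 129, 105, 127 and 113 CPM in WT and 161, 164, 139 and 143 CPM in KO. Bub1b alone gave 42.2, 22.4, 42.1 and 34.6 CPM of this in WT and 77.7, 75.4, 69.1 and 72.2 CPM in KO. Without Bub1b the sums of WT and KO overlapped, so they do not show a rise of the mitotic set.

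Kif14 had the smallest p of the members in the retina. It was at 3.84, 4.48, 4.37 and 3.45 CPM in WT and 12.0, 9.23, 9.98 and 11.6 CPM in KO, apart in each library (log2 1.40 ± 0.11, adjusted p = 7.29e-07). Bub1b (chromosome 2, 118598211 to 118641591) was at 42.2, 22.4, 42.1 and 34.6 CPM in WT and 77.7, 75.4, 69.1 and 72.2 CPM in KO, again without overlap (log2 1.06 ± 0.15, adjusted p = 8.91e-05). With 8.26 and 17.2 RPKM in WT and KO it was the most abundant mitotic gene per kilobase in the KO retina, while Bub1, the related checkpoint kinase, was at 0.0549 to 0.33 CPM.

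Cenpa and Ccna2 fell in the KO retina. Cenpa went from 6.43, 5.96, 6.18 and 5.92 CPM in WT to 2.75, 3.48, 2.06 and 2.31 CPM in KO (log2 −1.20 ± 0.14, adjusted p = 2.64e-05). Ccna2 went from 38.5, 39.4, 38.1 and 34.6 CPM to 27.6, 27.4, 22.3 and 22.0 CPM (log2 −0.60 ± 0.08, adjusted p = 9.25e-05). In both, all KO libraries were under all WT libraries. Aspm, at 2.18, 2.61, 2.19 and 1.59 CPM in WT and 1.32, 1.77, 1.46 and 1.22 CPM in KO, fell with overlap (log2 −0.56 ± 0.18, adjusted p = 0.0317).

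Outside mitosis, Cdkn1a rose from 3.16, 5.43, 4.37 and 5.11 CPM in the WT retina to 8.82, 10.9, 6.74 and 9.33 CPM in the KO retina, without overlap (log2 0.99 ± 0.17, adjusted p = 0.000569). Mcm3, a helicase subunit, rose from 2.89, 2.26, 2.79 and 2.68 CPM to 3.85, 3.60, 4.20 and 3.15 CPM, also apart (log2 0.48 ± 0.13, adjusted p = 0.0122). Of the 5 G1 genes 3 rose, each with overlap, while Ccne1 and Ccne2 did not pass (adjusted p = 0.986 and 0.222). Ccnd1 was at 18.9, 30.8, 19.7 and 23.2 CPM in WT and 29.5, 28.9, 30.9 and 33.6 CPM in KO (log2 0.40 ± 0.13, adjusted p = 0.0261). Ccnd2 was at 3.95, 7.76, 3.99 and 5.11 CPM in WT and 8.30, 10.7, 5.96 and 7.36 CPM in KO (log2 0.64 ± 0.21, adjusted p = 0.037). For both cyclins WT replicate 2 was the library that overlapped. E2f1 was at 1.73, 1.52, 1.43 and 1.41 CPM in WT and 2.39, 2.37, 1.66 and 2.61 CPM in KO (log2 0.56 ± 0.17, adjusted p = 0.0205). Of the 8 fits without 1 library, the Ccnd1 and Ccnd2 calls held in 3, that of E2f1 in 4 and that of Aspm in 2.

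The usual proliferation markers were near the floor in the retina. Mki67 was at 0.272, 0.388, 0.264 and 0.211 CPM in WT and 0.495, 2.97, 0.542 and 0.168 CPM in KO, so that KO replicate 2 alone stood high and replicate 4 was under every WT library (log2 1.91 ± 0.71, adjusted p = 0.0585, or 0.00899 with the block). Fibroblast markers were also highest in that library, summing to 112 CPM against 33.7 to 38.5 CPM in the other KO and 21.0 to 26.9 CPM in the WT retina libraries, and their part in its Mki67 level was not tested. Cdk1, at 0.176 to 0.388 CPM in WT and 0.169 to 0.599 CPM in KO, and Ube2c, at 0.113 to 0.423 and 0.0824 to 0.27 CPM, were not tested. Top2a was not tested either, at 0.102, 0.106, 0 and 0.0705 CPM in WT and 0.577, 1.56, 0.271 and 0.505 CPM in KO, where every KO library was above every WT library. Rrm2, Ccnb1, Aurkb, Bub1 and Cdkn2a were likewise not tested.

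Other members did not pass the test in the retina at higher levels. Pcna lay at 32.5 to 37.7 CPM in WT and 35.6 to 37.5 CPM in KO, Mcm4 at 13.4 to 17.2 and 16.3 to 18.7 CPM, and Cdkn1b at 93.5 to 98.6 and 95.3 to 110 CPM, all overlapping. The kinesin Kif4 was at 8.36 to 12.2 and 9.17 to 13.7 CPM, and Plk1 at 1.87 to 3.00 and 2.17 to 2.73 CPM. Cenpe, at 5.61 to 7.73 and 7.32 to 9.97 CPM, passed with the block alone (log2 0.32, adjusted p = 0.0552 without and 0.0419 with it). Cdc20 was as low as Mki67, at 0.282 to 0.442 and 0.305 to 1.20 CPM (adjusted p = 0.172).

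Microglia and macrophage markers were higher in the KO retina for 15 of 15 genes, with summed levels of 76.8 to 81.7 CPM in WT and 272 to 315 CPM in KO. Rod markers were lower for 9 of 10, summing to 61794 to 68493 CPM in WT and 32036 to 36660 CPM in KO. Of 9 Müller glia markers 7 were higher and 1 lower. Astrocyte markers were higher for 3 of 5, summing to 230 to 253 CPM in WT and 429 to 512 CPM in KO, and endothelial markers for 2 of 8, summing to 278 to 331 CPM in WT and 451 to 474 CPM in KO. Pericyte and mural markers were lower for 2 of 7, at 850 to 955 and 665 to 704 CPM in sum. The part of these shifts in the retinal differences was not tested.

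The genotype effect differed between the tissues for 14 members. In a joint fit of the 16 libraries with a genotype by tissue term, the KO effect of 11 members was higher in RPE, where 3.11% of 21068 genes did, and that of 3 members lower, where 5.73% did. Cenpa and Aspm differed most, each by a log2 of 2.54 (SE 0.25 and 0.32, adjusted p = 2.43e-05 and 0.000173), and both rose in the RPE and fell in the retina. The others with a higher effect in the RPE were Ube2c (2.11), Cenpf (1.89), Birc5 (1.36), Prc1 (1.32), Aurka (1.29), Kif11 (1.25), Kif20a (1.25), Tpx2 (1.15) and Ccna2 (0.94). Among these, Ube2c had 2 to 12 counts per retina library, too few to be tested in the retina alone, and Birc5 had 12 to 24. With the block, Birc5 (adjusted p = 0.0622) and Prc1 (0.0513) no longer passed and Cenpe did (0.0391).

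Ccnd1 went the opposite way, lower in the KO RPE and higher in the KO retina (difference −1.05 ± 0.19, adjusted p = 0.00285). E2f1 (−1.08 ± 0.26, adjusted p = 0.0177) and Rrm2 (−1.5 ± 0.41, adjusted p = 0.0344) also had a lower effect in the RPE. Rrm2 had 4 to 17 counts per retina library and was not tested in the retina alone. Mki67 and Top2a did not differ beyond the spread, at −0.49 ± 0.83 and −1.73 ± 0.87 (adjusted p = 0.768 and 0.267), and the counts behind their retinal values were low. For all genes, scaling by totals moved the median difference from −0.05 to −0.18 and the calls from 656 higher and 1207 lower to 358 and 2155.

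Single-cell libraries held 26764 cells, 2558 to 5633 per library, with a median of 1349 to 4357 UMIs (unique molecular identifiers, 1 per captured transcript). Of 26715 different barcodes, 49 were found in more than 1 library. Most cells carried no mitotic transcript: 23735 had none of the 26 mitotic members analysed, 2780 had 1, 225 had 2, 18 had 3, 3 had 4, and 1 each had 23, 25 and 26. No cell lay between 4 and 23. At least 3 members were found in 24 cells, a share of 0.0897% (95% exact binomial interval 0.0575% to 0.133%, which like the other intervals covers counting error only).

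**Figure D4:**
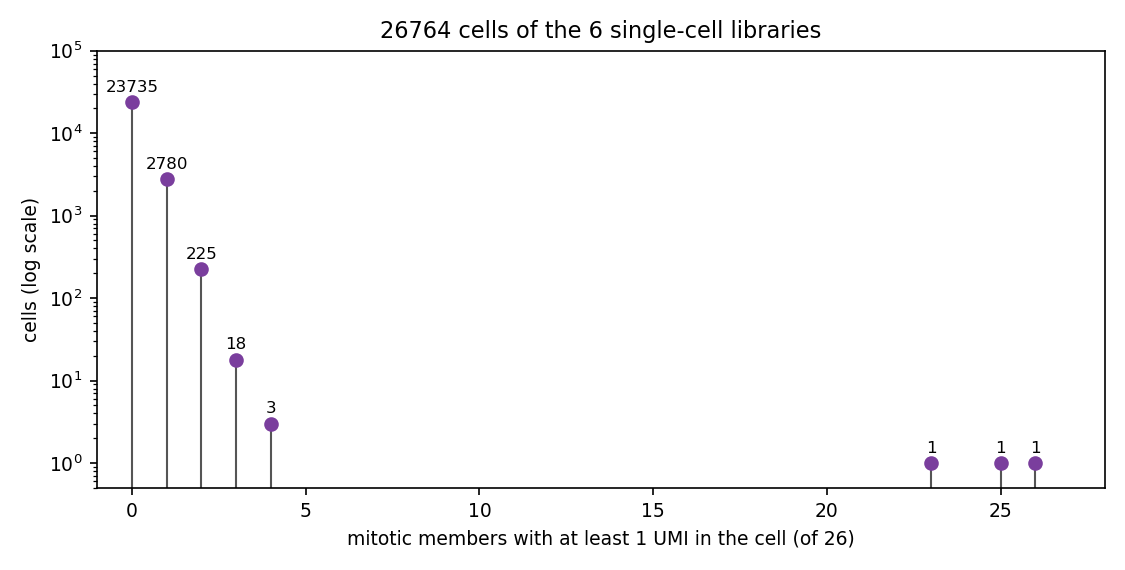
Number of cells (vertical axis, logarithmic) by how many of the 26 mitotic members had at least 1 UMI in the cell (horizontal axis), over the 6 single-cell libraries. Counts drop from 23735 cells with none to 3 with 4, and 3 single cells stand apart at 23, 25 and 26.

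By library the 24 cells were 4 of 5439 at WT P19, 3 of 5300 at KO P19, 10 of 4367 at WT P25, 6 of 5633 at KO P25, 1 of 2558 at WT P30 and 0 of 3467 at KO P30. No test was made, there being a single library for each, and the exact intervals of WT and KO overlapped at each age (0.11% to 0.421% against 0.0391% to 0.232% at P25). The KO P30 count of 0 had an exact interval up to 0.106%. The 21 cells with 3 or 4 members were mostly deep cells, with a median of 8030 UMIs against 2668 over all cells, and 0 of them had a Top2a UMI. With each cell thinned to 1000 UMIs, which left out 4006 shallower cells, 3 cells kept 3 or more members, the same 3 that stood apart. A deep cell with 3 or 4 members seldom keeps 3 at 1000 UMIs. Thinning therefore does not tell whether those 21 cells divide.

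Those 3 cells carried most transcripts of Top2a and Ube2c and smaller shares of the other mitotic genes. They held 88 of the 101 Top2a UMIs of all libraries (87.1%), 82 of 129 for Ube2c (63.6%), 53 of 121 for Birc5 (43.8%) and 42 of 103 for Cdk1 (40.8%). They held 37 of 190 for Mki67 (19.5%), 41 of 230 for Prc1 (17.8%), 25 of 211 for Ccna2 (11.8%) and 3 of 79 for Kif14 (3.8%). The 3 cells also held 7 of 919 Bub1b UMIs (0.762%), 31 of 337 for Cenpa (9.2%) and 16 of 8409 for Pcna (0.19%). Most UMIs of Bub1b, Cenpa and Pcna, like those of Mki67, Prc1, Ccna2 and Kif14, lay in cells without the rest of the mitotic set.

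Cell classes were rebuilt by clustering without cell cycle genes and named by their markers, so that each name stands for cells like that type. The cell with all 26 mitotic members lay in the microglia- and macrophage-like cluster, in the KO P19 library. It had 16193 UMIs and all 15 markers of that class, 1226 UMIs in all, led by C1qa with 242. Birc5 had 20 UMIs in it, Ube2c 17, Top2a 15, Prc1 13 and Mki67 7, and 3 of the 8 replication members were seen. In its class 3 of 133 cells had at least 3 mitotic members, or 2.26% (interval 0.468% to 6.45%), all from KO libraries, which gave 105 of the 133 cells.

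The other two cells clustered with RPE cells but lacked their markers. The WT P19 cell had 31201 UMIs and 25 of 26 mitotic members, all but Kif4, with 55 UMIs of Ube2c, 45 of Top2a, 39 of Cenpf and 20 of Mki67. It had 1 UMI each of the RPE genes Best1 and Rdh5 and none of Rpe65, Rgr or Lrat, or 64.1 UMIs of RPE markers per 1000000 against 11220 in the other 205 cells of its cluster. The KO P25 cell, with 82112 UMIs the deepest of any library, had 23 of 26 mitotic members, all but Ccnb1, Plk1 and Kif14, and was the 1 cell with all 8 replication members. Among RPE markers it had Ttr alone, with 7 UMIs. Of the marker lists, that of Müller glia was the highest in both: each had 8 of its 9 genes, with 599 and 2708 UMIs in all. Apoe, the lipid carrier apolipoprotein E, gave 499 and 2166 of these, and it also gave 222 of the 225 UMIs of this list in the microglia-like cell. Glul had 28 and 73, Clu 30 and 225, Dkk3 33 and 110 and Rlbp1 1 and 50. Both carried Optc (183 and 191 UMIs) and Col9a1 (161 and 490), genes looked at after the cells were seen. Optc was also among the leading genes of their whole cluster. The KO P25 cell also had 299 UMIs of the interferon-induced gene Isg15. No cell type is given to either.

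The RPE-like cluster had 2 of 207 cells with at least 3 mitotic members, or 0.966% (interval 0.117% to 3.45%). Elsewhere this share was lower in some classes and higher in others. It was 1 of 6264 rods (0.016%, median 1070 UMIs, the shallowest named class), 2 of 6417 bipolar cells, 3 of 6001 amacrine cells, 1 of 1565 cones and 1 of 2036 Müller glia (0.0491%, median 4656 UMIs). The 4 deepest classes had larger shares than these, though not in the order of their depth: 1 of 173 horizontal cells (0.578%, median 15398 UMIs), 3 of 402 ganglion cells (0.746%, median 7468 UMIs), 3 of 265 endothelial cells (1.13%, median 8013 UMIs) and 1 of 71 astrocytes (1.41%, median 8901 UMIs). Horizontal and ganglion cells are postmitotic neurons. The exact intervals of these 4 classes overlapped each other and those of the RPE-like and the microglia- and macrophage-like clusters. Among fibroblasts 0 of 161 had them, with an exact interval up to 2.27%, and among pericytes and mural cells 0 of 119, up to 3.05%. After thinning, none of the cells outside the 3 above was left in any class. With so few mitotic UMIs per cell, that does not tell whether they divide. A cluster of 1795 cells with rod markers, left unnamed, had 0. It is called shallow here against the medians of its libraries (0.31 of them), while its own median of 1121 UMIs was not below that of rods.

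Many members differed in level between classes, and whether the cells that carried them divide was not tested. Ccnd1 was highest in the RPE-like cluster (267 UMIs per 1000000 of the class), then in fibroblasts (189) and Müller glia (140). Ccnd2 was also highest in the RPE-like cluster (390). Cdkn1b led in Müller glia (345), Cdkn1a in endothelial cells (402), Pcna in cones and rods (135 and 125) and Mcm3 in microglia and macrophages (55.4), all pooled over the 6 libraries. Bub1b was at 51.0 in rods and 36.8 in cones when pooled, against 10.7 or less in each other class. Cones exceeded rods with the shallow cluster in 4 of the 6 libraries, all but KO P25 and KO P30. In the RPE-like cluster, Ccnd1 was at 244 and 225 per 1000000 in WT and KO at P19 and 264 and 417 at P25. The KO P25 value rests on 24 cells. Among them was the mitotic cell above that had few RPE markers, and it gave 44 of the 137 Ccnd1 UMIs. At P30, the age of the bulk RPE, only 10 and 13 cells were present.

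Bub1b, which rose 2.08-fold in the bulk KO retina, was higher in KO than in WT rods, while WT and KO cones overlapped. Rods were pooled with the shallow cluster, because 902 and 732 of the WT cells at P19 and P25 lay there and only 84 and 51 in the clusters named rod. Bub1b was at 3.05 (95% Poisson interval 0.831 to 7.81) per 1000000 UMIs in WT and 20.7 (13.9 to 29.7) in KO rods at P19, 12.2 (6.29 to 21.3) and 49.1 (41.0 to 58.4) at P25, and 13 (8.24 to 19.5) and 99.9 (87.6 to 113) at P30. KO rods were higher at each of the 3 ages with intervals that did not overlap, in 1 library per genotype and age. In cones the levels were 27.5 and 25.8 at P19, 45.0 and 45.7 at P25, and 46.0 and 48.4 at P30, with overlapping intervals at each age. At P30 bipolar cells were at 1.04 and 21.4, and amacrine cells at 1.35 and 7.48, and the part of free RNA from other cells in these low levels was not tested.

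Cdkn1a was higher in KO Müller glia. It was at 13.7 (8.35 to 21.1) and 49.7 (41.2 to 59.5) UMIs per 1000000 in WT and KO at P19 and at 13.1 (8.22 to 19.9) and 56.2 (49.0 to 64.1) at P25, intervals that did not overlap, and at 16.0 and 28.7 at P30, where they did. Ccnd2 in these cells was at 2.73 and 10.4 at P19 and 2.38 and 21.5 at P25. Cenpa in Müller glia was at 12.3 (7.29 to 19.4) in WT and 3.34 (1.44 to 6.58) in KO at P19, and its intervals overlapped at P25 (8.34 and 4.81) and at P30. In rods, Ccna2 and Cenpa were lower in KO at each age with overlapping intervals, at 6.78 and 3.79 for Ccna2 and 8.47 and 4.63 for Cenpa at P30. Kif14 in rods was at 3.81 and 4.28 per 1000000 in WT and KO at P19 (5 and 6 UMIs), 1.02 and 3.05 at P25 (1 and 8 UMIs) and 1.13 and 5.90 at P30 (2 and 14 UMIs), with overlapping intervals at each age, and had 0 UMIs in Müller glia of every library.

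**Figure D5:**
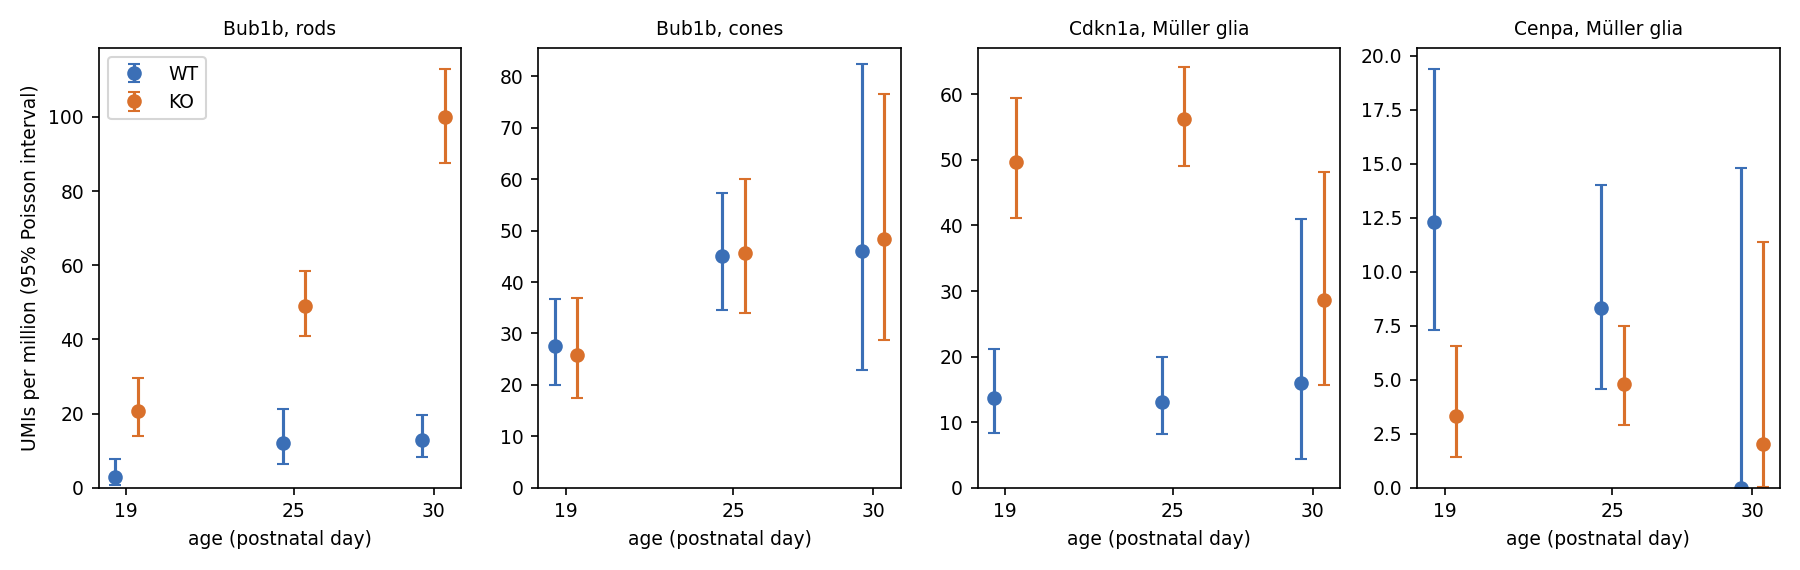
UMIs per 1000000 (vertical axes, from 0, with 95% Poisson intervals) of Bub1b in rods with the shallow cluster and in cones, and of Cdkn1a and Cenpa in Müller glia, by age in days (horizontal axis), with 1 WT (blue) and 1 KO (orange) library per age. Bub1b in KO rods goes from 20.7 at P19 to 99.9 at P30 and lies above WT at each age, while in cones WT and KO intervals overlap.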

How the data were processed

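Bulk RNA-seq of retina and RPE and 10x Chromium single-cell RNA-seq of retina were analysed. The bulk tables were deposited by the authors as read counts per gene, not normalized. The submitters' processing notes name mm10, HOMER, FastQC, bcl2fastq, edgeR 3.20.9, Cell Ranger 2.1 and Seurat 3.2.2, while no source used here gives the aligner of the bulk reads or the use of strand. The single-cell matrix was deposited by the authors as natural log values of UMIs scaled to 10000 per cell, to which scaling and log had been applied a second time. Inverting both steps gave whole UMIs for 99.99998% of values within 0.01.

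The members and gene lists were chosen with earlier results of these data known. Genes given by library or by range were, for each tissue, the called members (at most the 12 with the smallest p), Mki67, Top2a and Cdk1, and the 2 members of each list with the highest mean CPM. From the other cell cycle genes the 3 with the smallest p in RPE per list were kept. In single cells the members with the most UMIs per list and those of classes with mitotic cells were named. Genes named outside this rule were chosen after their values were seen.

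Each tissue was fitted alone with the edgeR 4.0.16 quasi-likelihood test (R 4.3.3, TMM scaling, filterByExpr), with Benjamini-Hochberg adjustment over all genes tested and a threshold of 0.05. All adjusted p-values in the text come from edgeR. DESeq2 1.42.0, limma-voom (limma 3.58.1), other scalings, filters and left-out libraries were alternatives. The code was tested on simulated data with changed genes. Same-numbered WT and KO libraries deviated together, with correlations of 0.335 to 0.716 in the RPE and 0.158 to 0.307 in the retina. Correlations of differently numbered libraries were not computed, so pairing by number was not shown. Replicate numbers entered as a block in an alternative fit.

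Cells were clustered with leidenalg 0.10.2 (2000 variable genes without the cell cycle lists, 30 components, 15 neighbours, resolution 1.0). No doublet caller was run, and the 5% of cells with the most UMIs per library were left out in an alternative. Intervals are exact binomial or Poisson at 95%, also for a count of 0. Per-sample columns not used numbered 0.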

Additional observations from a re-analysis of the deposited data

Results flagged for a closer look

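Single libraries stood apart from the other 3 of their group in 10 of 154 groups of 4 checked by Dixon's criterion, where chance gives about 1 group in 20. In the RPE these were E2f1 in WT replicate 2 (6.22 CPM against 10.9 to 11.4), Ccna2 in KO replicate 1 (10.7 against 7.60 to 7.86), Kif4 in WT replicate 4 (5.08 against 2.99 to 3.21) and Tpx2 in WT replicate 1 (3.35 against 1.80 to 1.99). In the retina they were Ccne2 in KO replicate 3 (3.89 CPM against 4.89 to 5.09), Aurka in WT replicate 2 (1.27 against 1.70 to 1.73) and in KO replicate 4 (1.77 against 1.23 to 1.29), and 3 mitotic genes in KO replicate 2: Mki67 (2.97 against 0.168 to 0.542), Cenpf (1.32 against 0.714 to 0.812) and Kif23 (1.08 against 0.338 to 0.463).

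The KO effect differed between RPE and retina for 14 members, by the genotype by tissue term of edgeR. The differences, RPE minus retina on the log2 scale, were 2.54 for Cenpa, 2.54 for Aspm, 2.11 for Ube2c, 1.89 for Cenpf, 1.36 for Birc5, 1.32 for Prc1, 1.29 for Aurka, 1.25 for Kif11, 1.25 for Kif20a, 1.15 for Tpx2, 0.94 for Ccna2, −1.05 for Ccnd1, −1.08 for E2f1 and −1.50 for Rrm2. Retinal counts of Ube2c, Rrm2 and Birc5 were low.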

How the results depend on the processing

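The 15 higher and 1 lower members of the KO RPE became 25 and 1 with DESeq2, 23 and 1 with both tissues in a single fit, and 6 and 2 without WT RPE replicates 2 and 3, a choice made after seeing the data. Leaving out any 1 library gave 5 to 22 higher and 1 to 2 lower members, the second lower member appearing without WT RPE replicate 2. With the replicate block the numbers were 20 and 1 in the RPE, 9 and 3 in the retina and 10 and 3 for the difference between tissues. The 7 higher members of the KO retina became 4 with a fold change of at least 1.5, 12 with scaling by library totals and 4 with both tissues in a single fit, and 5 to 8 without any 1 library, with 2 to 3 lower. The 11 members with a higher effect in the RPE became 7 without a low count filter and 7 to 14 without any 1 library, with 7 for each of KO RPE replicates 1 and 4, WT RPE replicate 2, KO retina replicates 3 and 4 and WT retina replicate 1. The 3 with a lower effect became 1 with limma-voom and 2 to 3 without any 1 library. Over all genes of the RPE, 539 higher and 739 lower became 1262 and 1439 with DESeq2 and 1470 and 1393 in the single fit. The causes were not tested.

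Values near 0 changed sign. In the RPE, Pcna was at 0.05 without WT replicates 2 and 3 and between −0.06 and 0.02 without any 1 library. Mcm4 was at 0.0 with totals, no filter or limma-voom, at 0.01 in the single fit and between −0.04 and 0.05 without any 1 library. In the retina, Pcna lay between −0.02 and 0.05 and Plk1 between −0.05 and 0.18 without any 1 library. Fits without 1 library gave 352 values for 44 fold changes, of which 68 lost the call, 5 gained it and 9 changed sign. Only values of called members could lose the call. These members were 15 higher and 1 lower in the RPE and 7 higher and 3 lower in the retina.

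The 24 cells with at least 3 mitotic members became 249 with at least 2 members, 6 with at least 4, 3 after thinning to 1000 UMIs and 13 without the 5% of cells with the most UMIs, which removed the 3 cells with 23 or more. Depth limits the single-cell values most at P30.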

Other observations

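Outside the 43 members, 31 of 102 other cell cycle genes tested passed in the KO retina, 14 higher and 17 lower (edgeR), where 16.2% of all retinal genes were higher and 14.7% lower, so that their share is near that of all genes. Their median log2 fold change was −0.07. Those with the smallest p went in both directions. Myb, a transcription factor of G1/S and G2/M genes, rose from a mean of 6.76 to 15 CPM (log2 1.15 ± 0.08, adjusted p = 2.13e-07), and Racgap1, a cytokinesis regulator, from 9.08 to 14.1 CPM. Spc25, a kinetochore subunit, fell from 103 to 60.7 CPM (log2 −0.76 ± 0.10, adjusted p = 4.85e-05), Smc4, a condensin subunit, from 39.1 to 29.1 CPM, and Mcm10, a replication initiation factor, from 6.24 to 3.77 CPM. Spc25 and the related kinetochore subunit Nuf2 (log2 −0.64) thus fell in the retina, while Nuf2 rose in the KO RPE (log2 1.25). These genes were picked after their values were seen.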
